A study of Homo sapiens with 13 samples.

Results

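The mRNAs of the mitochondrial protein import machinery were followed through a metabolic labelling chase in K562, a human cell line established from chronic myeloid leukaemia. The genes are the protein-coding genes whose symbol starts with TIMM or TOMM and a number, together with PAM16, DNAJC19, GRPEL1, HSPA9, PMPCA, PMPCB and SAMM50. They were chosen by name, and 32 of the 59204 human genes in the count tables belong to the set. A further 23 entries with such symbols, which are pseudogenes and noncoding transcripts, were left out.

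Chase libraries came from cells that received 30 µM 4-thiouridine (4sU), a uridine analogue that marks new RNA, for 12 h with fresh medium every 3 h, and that were then washed and kept in 3 mM uridine for 0, 1, 2, 4, 8 or 12 h (2 replicates per time). A single further library is of K562 cells given no 4sU. Alkylation makes sequencing read 4sU as C; RNA of Drosophila S2 cells was added at 5% as a spike-in, and the 3′ ends of the mixture were sequenced (SLAM-seq with a QuantSeq kit). The tables give each gene's count of all reads, called total here, and its count of the reads the authors call nascent, called labelled here.

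Most mitochondrial proteins are encoded in the nucleus, made on cytosolic ribosomes and imported through membrane machines. The TOM complex is the entry gate of the outer membrane, and SAM builds β-barrel proteins into that membrane. Small TIM chaperones ferry hydrophobic proteins across the space between the membranes, TIM22 inserts carrier proteins into the inner membrane, and TIM23 threads proteins with a presequence through or into it. The PAM motor, built around the mitochondrial HSP70 (HSPA9), pulls such proteins into the matrix, where the processing peptidase PMPCA/PMPCB cuts off the presequence.

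Total counts per library ran between 9004529 and 17425584. Labelled counts printed below for single genes are not scaled to library size, and the libraries of 0 h were the shallowest. Labelled reads made up 10.9 and 10.6% of the counts at 12 h, against 35.9 and 36.1% at 0 h, and in cells with no 4sU 0.00633% (95% Wilson interval 0.00597 to 0.00671%). All 8 erythroid and K562 markers were found, with a summed level of 4290 to 12980 CPM (counts scaled to library size), against 17.7 to 36.4 CPM for the 6 lymphocyte markers and 5.10 to 16.01 CPM for the 6 granulocyte and monocyte markers. The composition of the spike-in reads separated the libraries of 0, 1 and 2 h and replicate 1 of 4 h from the others, a split that runs almost with chase time, so values with that side as a term stand beside the calls they change. Only the libraries of 4 h fall on both sides. In the total RNA fits, which compare times as groups, the term is therefore set by the 4 h libraries alone. In the decay fits it overlaps strongly with chase time, so a call lost with it cannot tell the side from time. Intervals and floors cover counting error only.

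Of the 32 genes, 31 had enough counts for the decay test. The exception was TOMM20L, a paralog of the receptor TOMM20, which had no read in any library, so that a level of up to 0.333 CPM (3 counts) could have been missed in the shallowest one. Reads of several others are shared with neighbours or copies and are uncertain. TIMM23 and TIMM23B are near-identical copies on chromosome 10. The 3′ ends of PAM16, TOMM5 and TOMM6 lie inside annotated readthrough genes of the same strand, and those of TIMM8B, TIMM9, TIMM13, TIMM22, TIMM44, PMPCB and TOMM40L overlap transcripts of the other strand.

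Labelled import mRNAs were lost at very different rates. Over the 12 chase libraries the apparent half-life ran between 1.89 h for TIMM29, a subunit of TIM22, and 18.5 h for TIMM17B, a channel subunit of TIM23. In edgeR's quasi-likelihood test of each slope against the median slope of all genes (Benjamini-Hochberg adjusted over 9652 genes), 13 import mRNAs fell faster, where 35.7% of all genes did, and 16 fell more slowly, where 36.6% of all genes did. TIMM10 and PMPCA did not pass. The median half-life was 5.07 h for the 31 import mRNAs and 4.30 h for all genes tested, whose 10th and 90th percentiles were 2.30 and 10.9 h. Each of the 29 genes past the threshold kept its side of the median in either replicate series on its own. The genes were called on these same libraries, so this is not separate support for the calls. In shares, 41.9% of the import mRNAs were faster and 51.6% slower, so the set lay on both sides of the median, and most of what follows is about differences between its members.

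**Figure D1:**
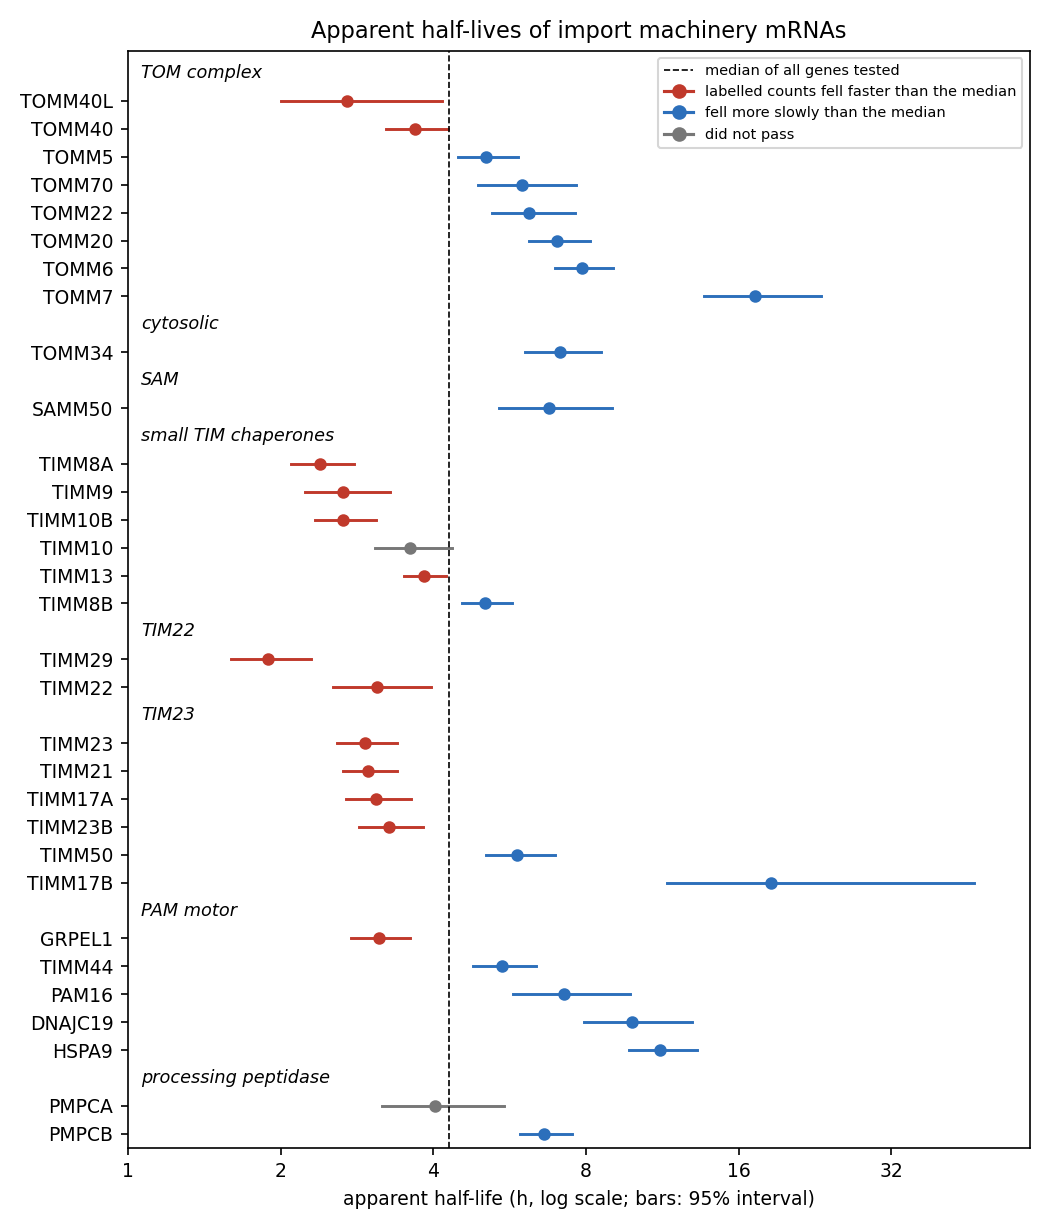
Apparent half-life in hours (log axis) of the 31 tested import mRNAs, grouped by the machine their protein belongs to, with 95% intervals from the fit over 12 chase libraries. The dashed line is the median of all genes tested (4.30 h), and the TIM22, TIM23 and small TIM genes lie mostly left of it while the TOM, SAM and PAM genes lie mostly right of it.

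By machine, and scaled to the total library, the TOM and PAM genes were mostly long-lived, and the genes of the small TIM chaperones, TIM22 and TIM23 mostly short-lived. Of the 8 tested TOM genes, 6 fell more slowly and 2 faster (median 6.08 h). Of the 5 PAM genes, 4 fell more slowly and 1 faster (median 7.24 h). Of the 6 small TIM chaperones, 4 fell faster, 1 more slowly and 1 did not pass (median 3.13 h). Both TIM22 genes fell faster (median 2.49 h), as did 4 of the 6 TIM23 genes, the other 2 falling more slowly (median 3.18 h). Of all genes tested, 36.6% fell more slowly and 35.7% faster. The spike-in side as a term left 4 TOM genes slower and 0 faster, and 3 PAM genes slower and 1 faster. It left 3 small TIM genes faster and 0 slower, 1 TIM22 gene faster and 0 slower, and 3 TIM23 genes faster and 1 slower. No difference between the machines was tested, since genes are not replicates of a machine.

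With the spike-in side as a term, 8 of the 31 fell faster and 10 more slowly, where 21.4% and 25.2% of all genes did. None of the 29 called genes changed direction, and TIMM10, which had not passed, moved to the slower side of the median without passing. When each gene's own total count was the offset, so that the loss of its labelled share was tested, 11 fell faster and 14 more slowly, where 38.1% and 40.0% of all genes did, and the median half-life was 4.07 h for the import mRNAs and 3.79 h for all genes. Of the genes called faster, TIMM13 (adjusted p = 0.967), TIMM21 (0.446), TIMM23B (0.639) and TOMM40 (0.201) did not pass on that scale. By machine, 2 TIM23 genes then fell faster and 2 more slowly (median 3.81 h), and 3 small TIM genes faster and 2 more slowly (3.64 h). Both TIM22 genes fell faster (2.08 h). Among TOM genes 2 fell faster and 5 more slowly (5.89 h), and among PAM genes 1 and 3 (5.84 h).

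The 3′ UTRs hold short motifs known to shorten the life of many mRNAs, the Pumilio motif TGTANATA (N is any base) and the AU-rich motif TATTTAT, searched on the transcript strand. They are shown for some of the members that hold one, by half-life within each motif, with the motif in capitals, from GENCODE 29 transcripts on GRCh38. The shortest-lived member with a motif, TIMM10B (AU-rich, half-life 2.66 h), is not shown. The position of the motif counts from the base after the stop codon.
TIMM17A (AU-rich, position 188, half-life 3.09 h): aatacgttTATTTATtcacactt
TIMM8B (AU-rich, position 161, half-life 5.07 h): gtgaaattTATTTATttggaatt
TOMM20 (AU-rich, position 160, half-life 7.02 h): gtctatttTATTTATttttccca
HSPA9 (AU-rich, position 524, half-life 11.2 h): aacttagcTATTTATattaggta
TIMM21 (Pumilio, position 283, half-life 2.98 h): ttacaccaTGTAAATAaaggaaat
TOMM6 (Pumilio, position 268, half-life 7.87 h): taaagttcTGTACATAgttcccaa
DNAJC19 (Pumilio, position 550, half-life 9.85 h): gtattctaTGTACATAtaaaccat

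The Pumilio motif stood in 8 of the 31 tested import mRNAs (25.8%), beside 28.0% of 8369 tested coding genes, and the AU-rich motif in 8 of 31 (25.8%), beside 32.3%. Over all tested coding genes the median half-life was 3.64 h with and 4.45 h without the Pumilio motif, and 3.70 h with and 4.49 h without the AU-rich one. Within the import genes the motifs occurred in TIMM21 and TIMM17A as well as in DNAJC19 and HSPA9, while the shortest-lived, TIMM29, and the longest-lived, TIMM17B, had neither. No Pumilio match overlapped an AU-rich one. A match in these letters describes the sequence only.

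The TOM complex holds the longest-lived transcript of the outer membrane machines. TOMM7 (chromosome 7, 22812628 to 22822852, minus strand, GRCh38), a small subunit of the complex, had labelled shares of 18.8 and 17.6% (0 h), 19.5 and 19.3% (1 h), 20.6 and 18.9% (2 h), 19.3 and 19.3% (4 h), 17.9 and 16.5% (8 h), and 13.6 and 13.8% (12 h). The share thus stayed near its starting level for 8 h, and both libraries of 12 h lay below all earlier ones. The fitted half-life was 17.2 h (95% interval 13.7 to 23.3 h, adjusted p = 1.96e-16), or 27.1 h with its own total as offset.

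The other small subunits lost label sooner. TOMM6 had a half-life of 7.87 h (6.96 to 9.04 h), with labelled shares of 22.1 and 21.0% at 12 h, against 57.1 and 56.5% at 0 h. TOMM5 had one of 5.08 h (4.47 to 5.89 h), with 18.6 and 17.4% at 12 h, against 67.2 and 67.8% at 0 h. Both fell more slowly than the median (adjusted p = 5.57e-13 and 0.00257), TOMM5 no longer with the spike-in side as a term (adjusted p = 0.244).

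The receptors, which recognise incoming precursors, all fell more slowly than the median. TOMM20, the presequence receptor (chromosome 1, 235109336 to 235128936, minus strand), had a half-life of 7.02 h (6.17 to 8.14 h), and TOMM22, the central receptor that holds the complex together, one of 6.19 h (5.21 to 7.61 h). TOMM70, the receptor for carrier proteins (chromosome 3, 100363431 to 100401398, minus strand), had one of 5.97 h (4.90 to 7.65 h, adjusted p = 8.38e-04, or 0.164 with the spike-in side as a term). For TOMM70 the outcome depended on the measure, because its total level climbed during the chase: its labelled share was 70.5 and 68.3% (0 h), 36.4 and 35.3% (4 h), and 5.84 and 6.16% (12 h). On the scale of its own total it fell faster than the median (adjusted p = 0.00233), with a half-life of 3.35 h.

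The pore genes were the short-lived members of TOM. TOMM40, which forms the pore (chromosome 19, 44890569 to 44903689, plus strand), had a half-life of 3.68 h (3.22 to 4.27 h, adjusted p = 0.00151). Its shares were 46.8 and 47.5% (0 h), 31.0 and 30.9% (4 h), and 3.96 and 4.02% (12 h). Its paralog TOMM40L had one of 2.70 h (2.00 to 4.15 h, adjusted p = 0.00208), from labelled counts of 45 and 67 (0 h), 65 and 34 (4 h), 13 and 2 (8 h), and 2 and 0 (12 h). The call of neither held with the spike-in side as a term (adjusted p = 0.153 for TOMM40 and 0.383 for TOMM40L). The loss of TOMM40L bent more than the median gene's. It was the only import gene whose quadratic term passed below the median (adjusted p = 0.0301), as in 3.46% of all genes. This call was lost without replicate 1 of 0 h, replicate 1 of 4 h or replicate 2 of 12 h, each of which left 0 such genes, and with own totals as offset there were 5. No quadratic term passed above the median, where 3.84% of all genes did, but 3 did without replicate 2 of 0 h, 2 with own totals as offset and 1 with the replicate block.

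Outside the complex, TOMM34, a cytosolic co-chaperone that binds HSP70 and HSP90, and SAMM50, the core of SAM, also fell more slowly than the median. Their half-lives were 7.10 h (6.06 to 8.57 h) for TOMM34 and 6.75 h (5.40 to 9.01 h) for SAMM50. With the spike-in side as a term SAMM50 did not pass (adjusted p = 0.0717), and with its own total as offset TOMM34 did not (adjusted p = 0.118).

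Among the small TIM chaperones the X-linked TIMM8A (chromosome X, 101345659 to 101349196, minus strand), the gene of the deafness-dystonia syndrome, was the shortest-lived, at 2.39 h (2.09 to 2.79 h, adjusted p = 8.97e-09). Its labelled counts were 309 and 271 (0 h), 382 and 389 (1 h), 355 and 274 (2 h), 126 and 133 (4 h), 37 and 34 (8 h), and 17 and 10 (12 h). In labelled shares, which do not depend on depth, the values were 66.9 and 70.9% (0 h), 65.5 and 65.9% (1 h), 64.7 and 55.1% (2 h), and 33.6 and 39.8% (4 h). The drop in share between 2 and 4 h exceeded the spread of the replicates at either time. TIMM9 and TIMM10B, which both work with TIMM10 in carrier transport, followed at 2.66 h each, with intervals of 2.23 to 3.29 h for TIMM9 and 2.34 to 3.08 h for TIMM10B.

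TIMM13, the partner of TIMM8A, had a half-life of 3.83 h (3.51 to 4.23 h). Its adjusted p of 0.0314 was the weakest among the 29 calls and was lost without any of 5 of the 12 libraries (replicate 1 of 0 h, both of 1 h, replicate 1 of 8 h and replicate 2 of 12 h; adjusted p up to 0.0771) and with the spike-in side as a term (adjusted p = 0.263). TIMM10 itself, at 3.60 h (3.07 to 4.36 h), did not pass (adjusted p = 0.165), but passed as faster without replicate 1 of 12 h (adjusted p = 0.0402) and as slower with its own total as offset (adjusted p = 5.59e-05). TIMM8B was the slow member, at 5.07 h (4.55 to 5.72 h, adjusted p = 0.00497). Its call was lost with the spike-in side as a term (adjusted p = 0.665). With its own total as offset the half-life of TIMM8B was 8.36 h.

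In TIM22, TIMM29 (chromosome 19, 10928733 to 10933535, plus strand) had the shortest half-life of all import genes, 1.89 h (1.60 to 2.30 h, adjusted p = 2.17e-09). Only 3.02% of the genes tested had a shorter one. Its labelled counts were 187 and 170 (0 h), 227 and 190 (1 h), 183 and 178 (2 h), 56 and 70 (4 h), 5 and 6 (8 h), and 2 and 4 (12 h). The higher counts at 1 h came from deeper libraries, and the labelled share was 42.0 and 41.5% there. The labelled share fell to 0.525 and 0.959% at 12 h, against 45.3 and 49.0% at 0 h. TIMM22, the channel, had a half-life of 3.10 h (2.54 to 3.96 h, adjusted p = 0.00277), from labelled counts of 3 and 7 at 12 h, against 93 and 71 at 0 h, and its call was lost with the spike-in side as a term (adjusted p = 0.0611).

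TIM23 held the longest-lived transcript of the set, TIMM17B, beside 4 short-lived ones. The channel protein TIMM23 (2.93 h), TIMM21, which links the translocase to assembling respiratory chain complexes (2.98 h), TIMM17A (3.09 h) and TIMM23B (3.27 h) lay close together, and their 95% intervals overlapped one another. TIMM50, the receptor that meets precursors as they leave TOM, fell more slowly at 5.86 h (5.07 to 6.94 h), and lost its call with the spike-in side as a term (adjusted p = 0.127). So did TIMM23B (adjusted p = 0.0791). TIMM17B stood far from its paralog TIMM17A, at 18.5 h (11.6 to 46.5 h, adjusted p = 4.85e-11). With its own total as offset the half-life of TIMM17B was over 48 h.

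In the PAM motor, HSPA9 (chromosome 5, 138553756 to 138575724, minus strand) was the longest-lived, at 11.2 h (9.74 to 13.3 h, adjusted p = 6.63e-14). Its labelled share was 70.8 and 71.1% (0 h), still 26.7 and 26.6% (8 h), and 18.4 and 17.0% (12 h). Since its total level also climbed, the half-life on the scale of its own total was 5.84 h. The J-domain protein DNAJC19, which stimulates HSPA9, had a half-life of 9.85 h (7.94 to 12.97 h), its regulator PAM16 one of 7.24 h (5.74 to 9.79 h) and the tether TIMM44 one of 5.47 h (4.78 to 6.38 h). TIMM44 lost its call with the spike-in side as a term (adjusted p = 0.459), and PAM16 with its own total as offset (adjusted p = 0.277, half-life 3.44 h).

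GRPEL1, the nucleotide exchange factor that releases HSPA9 from its substrate, was the exception in the motor, with a half-life of 3.12 h (2.76 to 3.59 h, adjusted p = 8.98e-07). Its total level hardly moved (109 to 123 CPM over all 13 libraries), while its labelled share fell to 4.42 and 4.00% at 12 h, against 65.5 and 62.1% at 0 h. The peptidase genes also differed: PMPCB, the catalytic subunit, had a half-life of 6.62 h (5.93 to 7.499 h, adjusted p = 3.42e-07), whereas PMPCA, the substrate-binding subunit, had one of 4.03 h (3.18 to 5.51 h) and did not pass (adjusted p = 0.539). With its own total as offset PMPCA passed as faster (adjusted p = 0.0389, half-life 3.05 h).

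The curves of loss had a slow start. In 30 of the 31 import genes the half-life over 0 to 4 h was longer than that over 2 to 12 h, SAMM50 being the exception (5.30 and 6.48 h). The medians were 7.04 h over 0 to 4 h and 4.44 h over 2 to 12 h, beside 6.26 and 3.76 h for all genes tested. TOMM70 showed the widest gap among genes with a value in both windows, at 20.4 h over 0 to 4 h and 4.82 h over 2 to 12 h. For TOMM7 and TIMM17B the early half-life was over 48 h. Over 0 to 4 h alone 7 genes, in place of 16, passed as slower. A half-life here is therefore an average over the whole chase.

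The labelled share at the end of the pulse differed widely between import genes. The median over the import genes was 56.8% (57.9% over all genes tested). TIMM17B (19.8 and 16.9%), TOMM7 (18.8 and 17.6%), PMPCA (26.1 and 19.4%) and PAM16 (28.0 and 26.6%) had low shares; the first 2 were the longest-lived import genes, while the half-life of PMPCA was 4.03 h. HSPA9, with the third-longest half-life, had 70.8 and 71.1%, a level reached also by short-lived TIMM21 (75.7 and 71.3%) and TIMM17A (72.2 and 72.3%). TIMM22 was the only import gene with a labelled read in the library without 4sU, where 1 of its reads was called labelled.

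Partners and paralogs were compared within libraries, as the ratio of their labelled counts, which needs no scaling between libraries. All 14 pairs had a slope on chase time in a two-sided permutation test over the 12 libraries (100000 resamples, adjusted over the pairs). Pairs of other genes were not tested, so this count has no background share. Since 35.7% of all genes fell faster than the median and 36.6% more slowly, it is not read as a trait of import genes. 

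The TIMM17 paralogs, alternative channel subunits of TIM23, differed most among paralogs of the set. TIMM17A had 0.829 times the labelled counts of TIMM17B at 12 h, against 8.69 times at 0 h, so that their order turned. The log2 ratio fell by 0.298 per h (SE 0.0134, adjusted p = 2.8e-05, at the smallest p these resamples can give). TIMM17A's labelled share was 72.2 and 72.3% (0 h), 58.4 and 58.0% (2 h), 33.8 and 33.6% (4 h), 12.2 and 11.02% (8 h), and 5.04 and 3.66% (12 h). TIMM17B's was 19.8 and 16.9% (0 h), 24.3 and 21.9% (2 h), 23.9 and 19.4% (4 h), 22.4 and 24.0% (8 h), and 18.6 and 16.1% (12 h). TIMM17A lost label at every step, while the TIMM17B values of 12 h and 0 h overlapped. TIMM23, which pairs with either paralog in the channel, followed a course near that of TIMM17A, and its log2 ratio to TIMM17B had a slope of −0.33 per h (SE 0.0106, adjusted p = 2.8e-05).

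**Figure D2:**
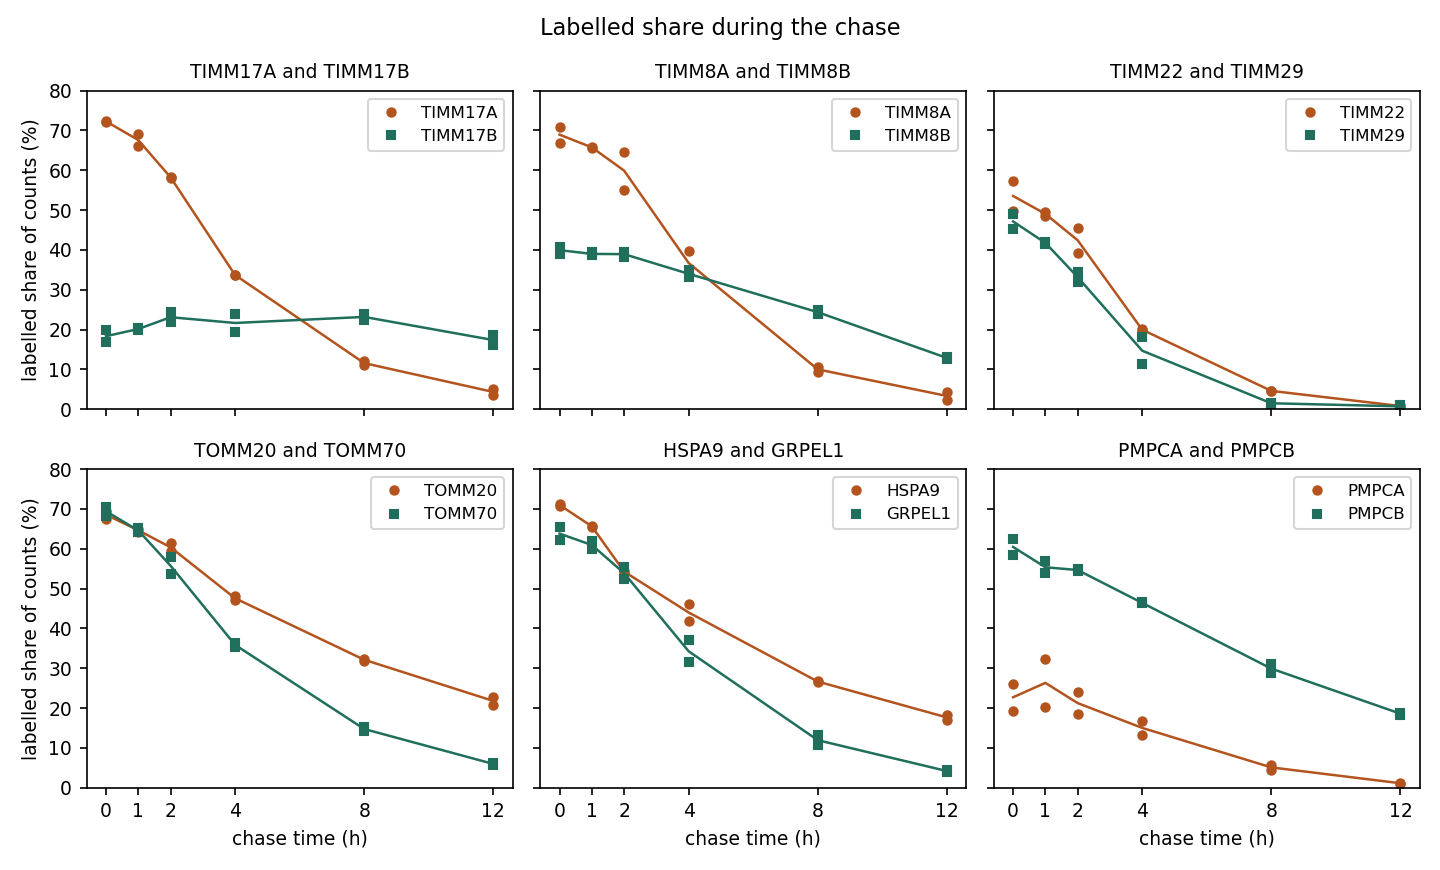
Labelled share of counts (percent) against chase time (h) in 6 pairs, with 1 point per library and a line through the means of 2 replicates. TIMM17A drops to 5.04 and 3.66% at 12 h while TIMM17B ends at 18.6 and 16.1%, and HSPA9, TOMM20 and PMPCB end above their partners.

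The TIMM8 paralogs also parted, with a slope of −0.22 per h for the log2 ratio of TIMM8A to TIMM8B (SE 0.0211, adjusted p = 4.67e-05). TIMM8A had 0.0708 times the labelled counts of TIMM8B at 12 h, against 0.378 times at 0 h. Both paralogs form a chaperone with TIMM13, and against TIMM13 the slope was −0.16 for TIMM8A (SE 0.0163) and 0.06 for TIMM8B (SE 0.00677; adjusted p = 2.8e-05 for each). In the carrier chaperone, the ratio of TIMM9 to TIMM10 fell by 0.151 per h (SE 0.0189, adjusted p = 0.000525), whereas that of TIMM10 to TIMM10B rose by 0.126 per h (SE 0.0224, adjusted p = 0.000653).

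The HSPA9 cycle combined transcripts of unlike persistence. HSPA9 had 9.10 times the labelled counts of GRPEL1 at 12 h, against 1.18 times at 0 h, a slope of 0.256 per h (SE 0.00961, adjusted p = 2.8e-05). GRPEL2, the paralog of GRPEL1, was lost faster still: GRPEL1 had 6.13 times its labelled counts at 12 h, against 0.702 times at 0 h (slope 0.296, SE 0.0430, adjusted p = 0.00042). Of the motor pairs, PAM16 and DNAJC19 differed least, with a slope of −0.04 per h for the log2 ratio of PAM16 to DNAJC19 (SE 0.0152, adjusted p = 0.0147), and this call was lost without replicate 1 of 12 h (adjusted p = 0.142).

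In the outer membrane, TOMM40 had 108 times the labelled counts of TOMM40L at 12 h, against 18.5 times at 0 h (slope 0.245, SE 0.0587, adjusted p = 0.00413). The receptors TOMM20 and TOMM70 parted by only 0.0383 per h (SE 0.0102, adjusted p = 0.00589). PMPCA lost label relative to PMPCB (slope −0.12, SE 0.0214, adjusted p = 0.000798). TIMM22 gained on TIMM29 in labelled counts by 0.196 per h (SE 0.0489, adjusted p = 0.00413), but not in labelled shares, where the slope was 0.0249 (adjusted p = 0.552).

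**Figure D3:**
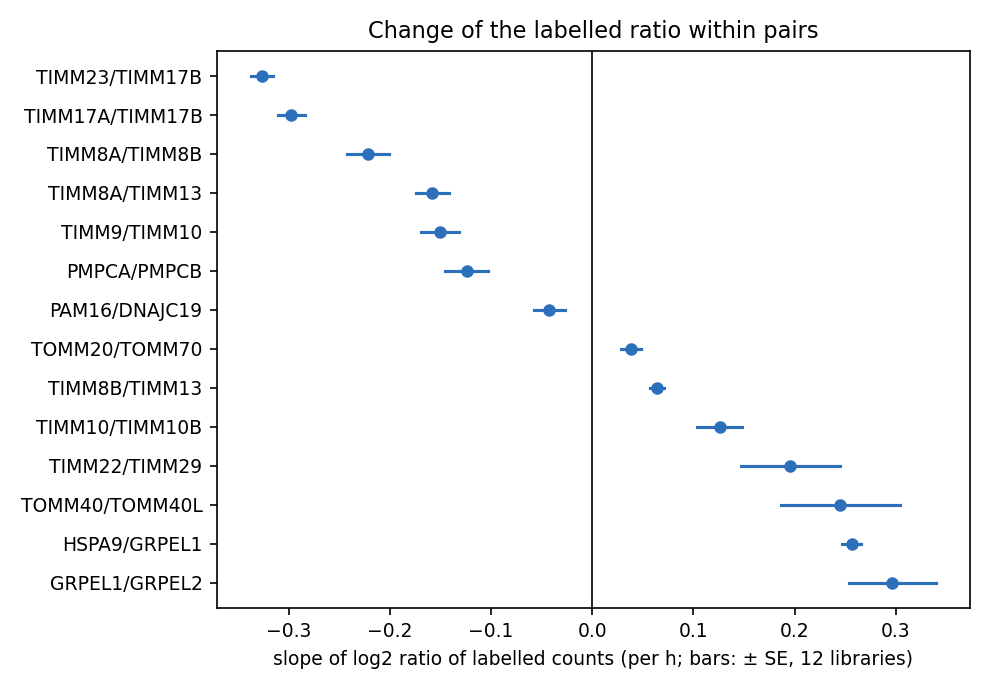
Slope of the log2 ratio of labelled counts on chase time (per h) for 14 pairs of partners or paralogs, with bars of 1 SE over the 12 chase libraries. Values left of 0 mean that the gene named before the stroke lost label faster than its partner, as in TIMM17A/TIMM17B (−0.30), and values right of 0 the opposite, as in HSPA9/GRPEL1 (0.26).

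Total RNA of the import genes moved in both directions. In bulk RNA, less transcript per cell and fewer cells that hold it cannot be told apart. At 12 h against 0 h, 10 of the 31 genes were higher, where 27.0% of all genes were, and 13 lower, where 29.1% of all genes were (edgeR, adjusted over 16255 genes). With the spike-in side as a term the counts were 9 and 10, where 17.9% and 19.2% of all genes passed. At 4 h against 0 h, 5 were higher and 10 lower, where 16.7% and 15.5% of all genes were. Leaving out replicate 1 of 0 h brought the lower ones to 6. On spike-in totals the counts were 7 and 4, where 19.2% and 6.4% of all genes passed. TIMM17B (log2 change −0.28) and TIMM44 (−0.32) also passed as lower at 4 h once the spike-in side was a term. TOMM20 (0.19) and PMPCB (−0.22) then did not pass.

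TOMM70 had 249 and 245 CPM at 12 h, against 103 and 93.4 CPM at 0 h, and 139 CPM without 4sU. It was 174 and 160 CPM at 4 h and 233 and 226 CPM at 8 h, a climb in which each time from 2 h on lay above the one before. The log2 change at 12 h was 1.28 (SE 0.0690, adjusted p = 1.32e-14). TOMM70 was also 1.74-fold higher at 12 h than without 4sU (log2 change 0.80, SE 0.0825, adjusted p = 6.13e-09).

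PAM16 had 81.7 and 80.4 CPM at 12 h, against 28.1 and 23.7 CPM at 0 h, and 111 CPM without 4sU. It was the largest rise in the set, 3.00-fold (log2 change 1.59, SE 0.0964, adjusted p = 1.40e-13). Reads of its readthrough gene may be included. TIMM22 was close to it, with 49.1 and 46.1 CPM at 12 h, against 16.8 and 15.9 CPM at 0 h, and 39.8 CPM without 4sU (log2 change 1.48, SE 0.118, adjusted p = 2.68e-11).

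Others that rose at 12 h were TOMM34, with 97.8 and 91.8 CPM at 12 h, against 40.9 and 41.7 CPM at 0 h (log2 change 1.143), and HSPA9, with 254 and 229 CPM at 12 h, against 132 and 120 CPM at 0 h (log2 change 0.89). PMPCA, TOMM40L, SAMM50, TOMM22 and TIMM9 rose by between 0.26 and 0.87 on the log2 scale. SAMM50 was lost with the spike-in side as a term (adjusted p = 0.294), and TIMM9 without replicate 1 (adjusted p = 0.0687) or replicate 2 (adjusted p = 0.0719) of 12 h.

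Among the genes that fell, TIMM8B had 114 and 120 CPM at 12 h, against 219 and 194 CPM at 0 h, and 192 CPM without 4sU (log2 change −0.87, SE 0.0799, adjusted p = 4.22e-10). TIMM10 had 35.7 and 30.5 CPM at 12 h, against 64.4 and 51.8 CPM at 0 h (log2 change −0.87, SE 0.107, adjusted p = 9.12e-08). TIMM21 had 24.2 and 22.7 CPM at 12 h, against 39.2 and 41.4 CPM at 0 h (log2 change −0.84, SE 0.105, adjusted p = 1.30e-07). In all 3 genes the libraries of 12 h lay below those of 0 h. TIMM23B, TIMM23, TIMM44, TOMM5, TIMM17B, TIMM8A, TIMM29, TIMM10B, TOMM7 and PMPCB fell by between 0.22 and 0.79. TIMM10B, TIMM29 and PMPCB did not pass with the spike-in side as a term (adjusted p = 0.226 for TIMM10B, 0.159 for TIMM29 and 0.386 for PMPCB). Without replicate 1 of 0 h TOMM7 did not pass (adjusted p = 0.116), nor did PMPCB (adjusted p = 0.507), whose call was also lost without any of 5 other libraries (replicates 1 and 2 of 1 h, replicate 1 of 2 h and both of 12 h; adjusted p between 0.0943 and 0.135). With spike-in totals as library sizes, which moved the median of all genes to a log2 change of 0.36 (−0.06 in the main scaling), PMPCB, TIMM10B and TOMM7 turned to positive values and every other call kept its sign. On that scale 18 genes were higher and 4 lower, where 40.4% and 13.7% of all genes were.

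**Figure D4:**
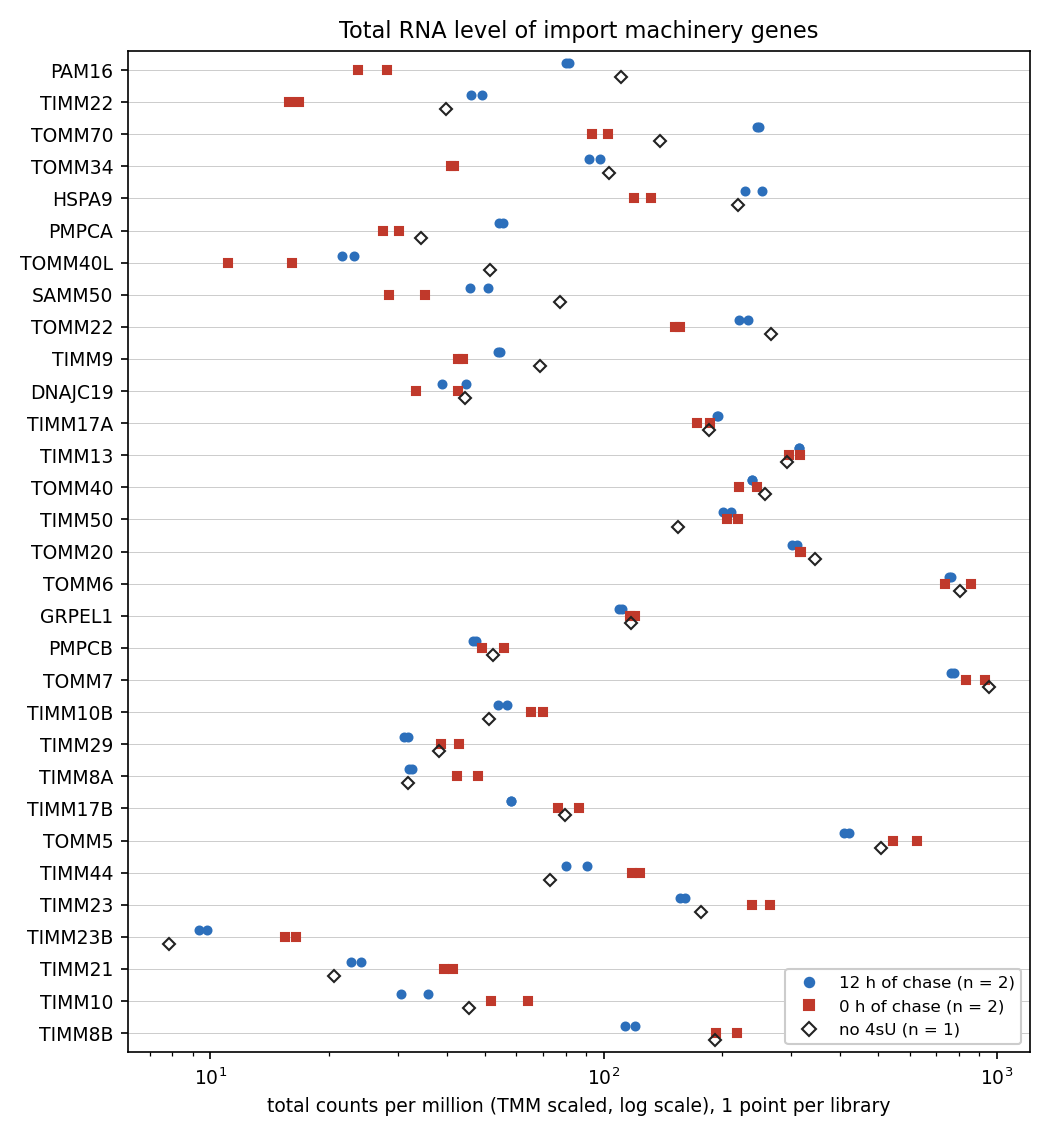
Total CPM (TMM scaled, log axis) of the 31 tested import genes, 1 point per library, at 12 h of chase (n = 2), at 0 h (n = 2) and without 4sU (n = 1), ordered by the change at 12 h against 0 h. PAM16, TIMM22, TOMM70 and TOMM34 head the list with 12 h values above those of 0 h, and TIMM21, TIMM10 and TIMM8B close it with values below.

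Cells at the end of the pulse were next set against the library without 4sU, which stands alone, so its spread was taken to equal that of the other groups. Here 9 import genes were higher at 0 h, where 33.5% of all genes were, and 9 were lower, where 31.8% of all genes were. Those lower were PAM16 (log2 change −2.08), TOMM40L (−1.90), TOMM34 (−1.30), TIMM22 (−1.26), SAMM50 (−1.26), HSPA9 (−0.79), TOMM22 (−0.77), TIMM9 (−0.65) and TOMM70 (−0.48). Those higher were TIMM23B (1.048), TIMM21 (0.99), TIMM44 (0.75), TIMM23 (0.53), TIMM8A (0.53), TIMM50 (0.48), TIMM10B (0.43), TIMM10 (0.38) and TOMM5 (0.22). TIMM8B (log2 change 0.31) also passed as higher and TOMM40 (−0.37) as lower once the spike-in side was a term. With the spike-in side as a term TIMM10 (adjusted p = 0.163), TIMM10B (0.0931) and TOMM5 (0.122) did not pass, nor did TIMM10 (0.182) and TOMM5 (0.257) without replicate 1 of 0 h. Spike-in totals moved the median of all genes to 0.54 (0.06 in the main scaling); no call changed sign, but TOMM70 came to a log2 change close to 0 (adjusted p = 0.998). On that scale 20 genes were higher and 7 lower, where 46.4% and 18.4% of all genes were.

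These 2 comparisons share the libraries of 0 h, so their signs are not independent, and levels of all 3 groups are given side by side. SAMM50 had 50.7 and 45.6 CPM at 12 h, against 35.2 and 28.4 CPM at 0 h, and 77.3 CPM without 4sU. TIMM8A had 32.1 and 32.6 CPM at 12 h, close to its 31.8 CPM without 4sU.

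**Figure D5:**
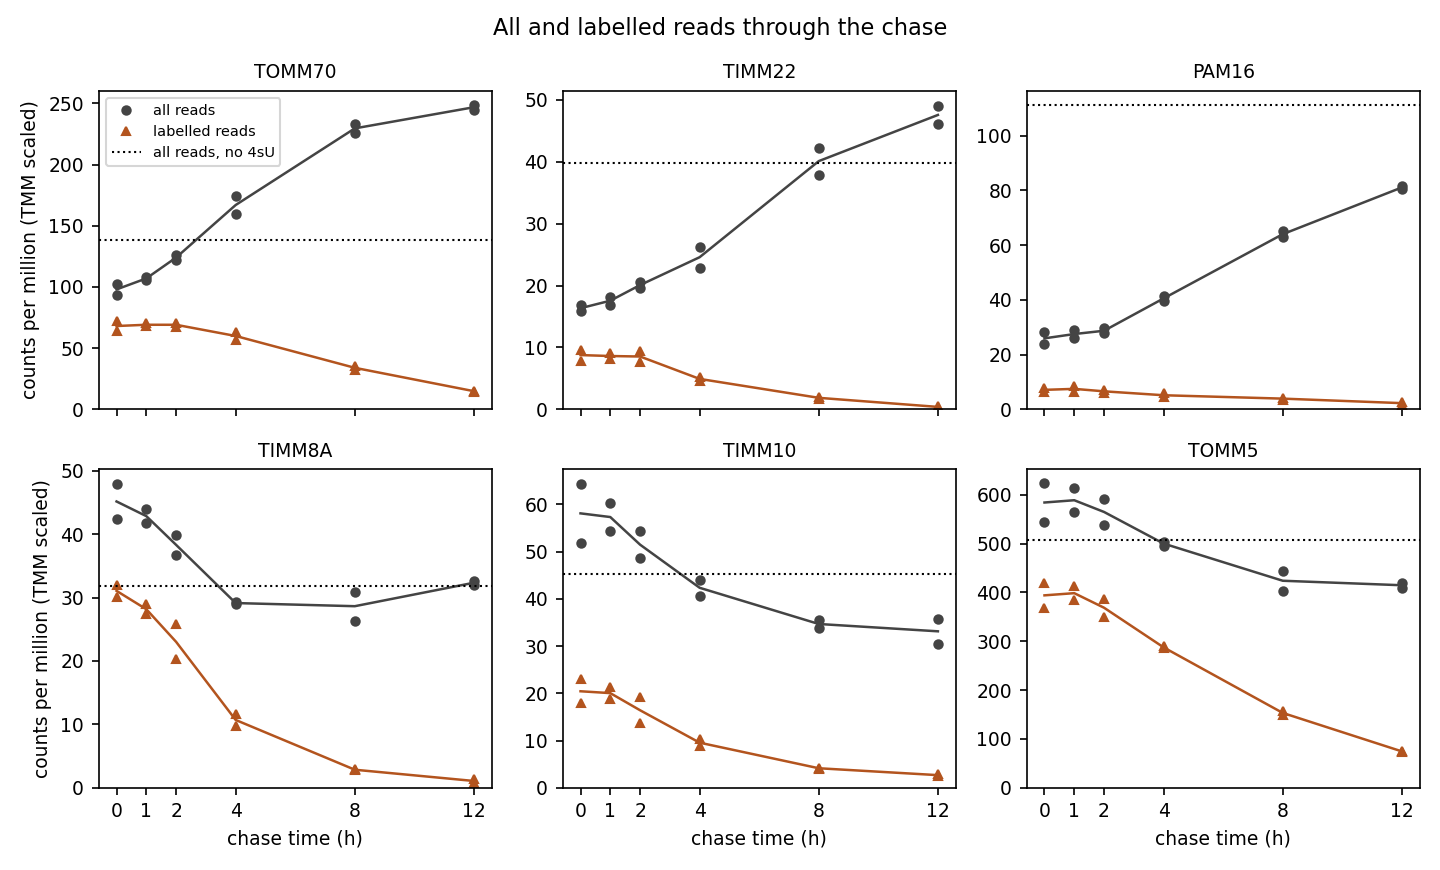
CPM (TMM scaled) of all reads and of labelled reads against chase time (h) for 6 import genes, 1 point per library with a line through the means of 2 replicates; the dotted line is the level of all reads without 4sU. TOMM70, TIMM22 and PAM16 climb during the chase while their labelled reads fall, and in TIMM8A, TIMM10 and TOMM5 both fall.

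At 12 h against no 4sU, 3 import genes were higher (TOMM70, PMPCA and TIMM50), where 26.2% of all genes were, and 12 lower, where 24.9% of all genes were. The lowest were TOMM40L, with 23.1 and 21.6 CPM at 12 h, against 51.3 CPM without 4sU (log2 change −1.23, adjusted p = 7.13e-08), TIMM8B (−0.75, adjusted p = 1.58e-07) and SAMM50 (−0.72, adjusted p = 2.70e-05). With spike-in totals, which moved the median of all genes to 0.94 (0.05 in the main scaling), 11 of these 12 turned positive and only TOMM40L stayed below 0, so the direction of the lower calls holds only relative to the other genes of the library. On that scale 28 genes passed as higher and 0 as lower, where 62.3% and 5.52% of all genes did. In the main scaling TIMM23 (log2 change −0.19) also passed as lower once the spike-in side was a term.

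Promoters of import genes hold motifs of the factors NRF1, which drives many nuclear genes for mitochondria, ETS and YY1. Windows of 250 bases before to 50 after the start site (RefSeq, GRCh38.p14) were found for 29 of the 32 genes and searched on both strands. The NRF1 motif (GCGC, any base and then TGCGC) stood in 6 of 29 (20.7%), beside 8.58% of 15843 coding promoters, the ETS motif CCGGAAGT in 6 of 29 (20.7%), beside 6.19%, and the YY1 motif AAGATGGCG in 3 of 29 (10.3%), beside 2.74%. No 2 matches in an import promoter overlapped. Stretches are shown for the shortest-lived gene, for a pair of genes whose total level climbed during the chase and for TOMM20, whose change at 12 h against 0 h did not pass, with the motifs in capitals (either strand), each written 5′ to 3′ on the gene's strand.
TIMM29, chr19:10928691-10928810, plus strand: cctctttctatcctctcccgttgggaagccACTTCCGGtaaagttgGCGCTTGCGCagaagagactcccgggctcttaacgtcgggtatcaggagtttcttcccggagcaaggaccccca
TOMM20, chr1:235128838-235128957, minus strand: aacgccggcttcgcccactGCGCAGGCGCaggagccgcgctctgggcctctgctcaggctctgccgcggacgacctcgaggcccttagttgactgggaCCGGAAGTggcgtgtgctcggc
TOMM70, chr3:100401090-100401209, minus strand: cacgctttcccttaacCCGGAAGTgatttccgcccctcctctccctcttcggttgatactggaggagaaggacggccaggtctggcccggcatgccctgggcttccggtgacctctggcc
PAM16, chr16:4351322-4351441, minus strand: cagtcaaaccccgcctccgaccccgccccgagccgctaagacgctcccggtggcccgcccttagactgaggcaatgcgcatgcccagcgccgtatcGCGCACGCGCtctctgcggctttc
TIMM29 and TOMM20, with half-lives of 1.89 and 7.02 h, both held an ETS and an NRF1 motif. TOMM70 (ETS) and PAM16 (NRF1), whose total level climbed, each held 1 of them, and TOMM20 (log2 change −0.10, adjusted p = 0.154) held both. The RefSeq start sites of these genes differ from the GENCODE 29 ones. By GENCODE 29 spans, the stretches of TOMM70 and PAM16 lie inside the gene, and those of TIMM29 and TOMM20 overlap its start.

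Other genes of import and of mitochondrial quality control were set beside these. Their calls were not counted with the spike-in side as a term. Of 19 import partners 16 were tested. Of these 10 fell more slowly than the median, where 36.6% of all genes did, and 3 faster, where 35.7% did. The other 3 did not pass, and the median half-life of the 16 was 5.84 h, beside 4.30 h for all genes tested. The shortest were GRPEL2 at 1.60 h (1.44 to 1.80 h) and CHCHD4, the oxidoreductase that folds small TIM proteins, at 2.64 h (2.34 to 3.03 h). The longest were AIFM1, which anchors CHCHD4, at 18.6 h (13.02 to 32.4 h), and MTCH2, an insertase of the outer membrane, at no less than 20.4 h.

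Of 14 mitochondrial chaperones and proteases, 9 fell more slowly, where 36.6% of all genes did, and none faster, where 35.7% did. The other 5 did not pass (median of the 14, 6.49 h). HTRA2 (3.92 h) and SPG7 (4.00 h), both proteases, were the shortest, and HSPD1, the HSP60 chaperonin (14.0 h), and TRAP1, the mitochondrial HSP90 (14.0 h), the longest. With its own total as offset SPG7 was lost faster than the median. All 7 genes of MICOS, the complex that shapes cristae, fell more slowly, where 36.6% of all genes did (median 7.01 h). CHCHD6 (adjusted p = 0.048) and MICOS13 (0.0486) passed narrowly. Their intervals, 4.19 to 19.5 h and 4.17 to 8.35 h, held the 4.30 h median of all genes tested. MICOS13 (5.56 h) and CHCHD3 (5.68 h) were the shortest, and IMMT, its core subunit (10.5 h), and MICOS10 (12.0 h) the longest.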

How the data were processed

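The authors deposited raw counts of all reads, of reads they call nascent, and of Drosophila reads per gene. Per the submitters' processing notes, the tools included Trim Galore 0.6.5, bcl2fastq 2.17.1.14 and bedtools, with builds hg38 and dm6. How reads were aligned, counted by strand and called nascent is not given in the sources used here. Of 59204 gene IDs, 40541 were named from a name table and 457 from GENCODE 29; coordinates are GENCODE 29 gene spans.

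Counts were tested with edgeR 4.0.16 in R 4.3.3 (false discovery rate 0.05, two-sided). Decay: slope of labelled counts on time over 12 libraries, offset log TMM effective size of the total library, genes of at least 5 mean CPM and 100 labelled counts. Half-lives: quasi-Poisson exponential plus the gene's no-4sU share as background (95% interval; upper bounds over 48 h not read; scipy 1.17.1 and numpy 2.4.6 in Python 3.11.15; tables with pandas 2.3.3, figures with matplotlib 3.10.9). Total counts: 7 groups sharing 1 spread. Pair ratios: pseudocount 0.5. The spike-in side is the sign of component 1 (68.4% of variance) of 597 spike-in genes of at least 200 mean counts. The count fits were tested on simulated data.

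Alternatives were DESeq2 1.42.0, spike-in totals, each gene's own total, other filters and time windows, the replicate block, the spike-in side and each library left out. A fit of the chase libraries alone was chosen after seeing the data. Named are all members, the pair genes and, in each other list, the 2 genes of longest and 2 of shortest half-life. CHCHD6 was added because its call lay near the threshold. Members and lists were chosen with earlier results of these data known. Whether replicates were separate cultures is not labelled; p-values then cover only these samples' spread, possibly technical. Replicates differed beyond sampling noise at every time.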

Additional observations from a re-analysis of the deposited data

How the results depend on the processing

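The decay calls of all 31 import genes were the same with DESeq2 size factors, DESeq2's test, spike-in totals, 500 labelled counts and the replicate block. Slopes were tested against the median slope, which takes up any change of library scaling that trends with time. The filter of 500 labelled counts left the members' own counts unchanged. The size factors, spike-in totals and that filter could therefore hardly move a call. With the spike-in side as a term 8 fell faster and 10 more slowly; over 0 to 4 h 7 fell more slowly. The median half-life was 6.082 h on spike-in totals, 4.071 h with own totals as offset, 7.04 h over 0 to 4 h and 4.441 h over 2 to 12 h. The slope relative to the median changed sign with own totals as offset for PAM16 (−0.0204), TIMM10 (0.0766), TIMM13 (0.000856), TIMM23B (0.00921) and TOMM70 (−0.0337), over 0 to 4 h for PMPCA (0.0234), SAMM50 (−0.0309) and TOMM40L (0.0156), without a filter for PMPCA (0.0231), TIMM10 (0.0138) and TIMM13 (0.0150), and with the spike-in side as a term for TIMM10 (0.0224). Without a filter TIMM22, TIMM23B and TOMM40 did not pass either. Quadratic terms below the median numbered 5 and above it 2 with own totals as offset, and 1 above it with the replicate block. Among chaperones and proteases 1 fell faster with own totals as offset. The causes were not tested.

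With spike-in totals as library sizes 4 genes were lower at 4 h against 0 h, 18 higher and 4 lower at 12 h against 0 h, 20 higher at 0 h against no 4sU, and 28 higher and 0 lower at 12 h against no 4sU. Log2 changes turned sign at 12 h against 0 h for GRPEL1 (0.2619), PMPCB (0.2003), TIMM10B (0.0668), TIMM13 (0.3994), TIMM50 (0.314), TOMM20 (0.3147), TOMM40 (0.3958), TOMM6 (0.2941) and TOMM7 (0.1667), at 4 h against 0 h for TOMM22 (0.0804), and at 0 h against no 4sU for DNAJC19 (0.2811), PMPCA (0.2465), TIMM17A (0.4596), TOMM20 (0.3803), TOMM40 (0.3552) and TOMM7 (0.388). At 12 h against no 4sU they changed for DNAJC19 (0.7856), GRPEL1 (0.7714), PAM16 (0.4087), PMPCB (0.7012), SAMM50 (0.1773), TIMM10 (0.4054), TIMM17B (0.4089), TIMM23 (0.7077), TIMM29 (0.5851), TIMM8A (0.8877), TIMM8B (0.1487), TIMM9 (0.514), TOMM20 (0.695), TOMM22 (0.6245), TOMM34 (0.735), TOMM40 (0.751), TOMM5 (0.5716), TOMM6 (0.7772) and TOMM7 (0.5547).

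Leaving out 1 library at a time gave 12 to 14 faster and 16 to 16 slower genes, 0 to 2 and 0 to 3 quadratic terms below and above the median, and median half-lives of 4.864 to 5.247 h. Total RNA gave 4 to 7 higher and 6 to 11 lower at 4 h against 0 h, and 9 to 10 higher and 11 to 14 lower at 12 h against 0 h. It gave 7 to 9 higher and 9 to 9 lower at 0 h against no 4sU, and 3 to 3 higher and 10 to 13 lower at 12 h against no 4sU. Of the pairs, 13 to 14 passed. Replicate numbers did not pair the libraries, since same-numbered deviations correlated at −0.158 to 0.4418 and over 0.1 in 4 of 15 pairs of times. The replicate block, fitted on the chase libraries alone, gave 7 higher and 10 lower at 4 h and 10 higher and 12 lower at 12 h against 0 h; without the block that fit gave 7 and 9, and 10 and 12. Late labelled counts of TIMM29, TIMM22 and TOMM40L, at 0 to 7 per library at 12 h, limit their late slopes.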
